A study of Bos taurus and Sus scrofa with 6 samples.

Results

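Peritubular myoid cells of the cattle testis were chosen here by the smooth muscle genes ACTA2, MYH11, TAGLN, CNN1 and ACTG2, and they made up 3420 of the 18504 barcodes called as cells in the 3 cattle libraries. A called barcode was kept when these 5 contractile genes together held at least 4 unique molecular identifiers (UMIs, each counting 1 captured RNA molecule) over at least 3 of the genes. It was left out when at least 2 genes of a germ cell set (DDX4, DAZL, MAEL, TDRD1), a Sertoli cell set (FSHR, AMH, CLDN11), a Leydig cell set (CYP17A1, CYP11A1, STAR) or an endothelial set (PECAM1, CLDN5, KDR) had a UMI, or at least 3 of the cell division genes UBE2C, TOP2A, CENPF, NUSAP1 and PCLAF. The 23 genes of the rule therefore describe the choice and were not tested. With both species the series held 27961 called barcodes.

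The libraries came from unsorted testicular cells of 3 Holstein cattle aged 4.5 months, before puberty, for which the labels name no treatment or genetic change, and 3 mixed breed pigs aged 3 months served for 1 comparison. Each animal gave 1 library. The labels give the same testis number to 2 cattle libraries and to 2 pig libraries, and each library was counted as 1 animal, as the study's methods describe. The animals of a group were not treated differently, so differences were taken between cells of the same 3 animals, and the spread is that between animals.

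Peritubular myoid cells form the flattened contractile sheath around each seminiferous tubule. Their contraction moves fluid and sperm along the tubule, and together with Sertoli cells they lay down the basement membrane between tubule and interstitium. In the rodent testis they respond to desert hedgehog from Sertoli cells, to androgen and to platelet-derived growth factor. Their contractile genes are shared with the smooth muscle and pericytes of vessels, which are also called mural cells.

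The cattle libraries held 5805223, 27409347 and 53325608 UMIs, in the order cattle 1, cattle 2 and cattle 3, which is kept for every set of 3 values given here. Of 3545, 8751 and 6208 called barcodes, 381, 1414 and 1625 met the rule. Their median depth was 813, 1863 and 5130 UMIs, and their summed counts were 344082, 2818036 and 8618412 UMIs. Cattle 1 was therefore measured at far lower depth than cattle 3, and a gene with few UMIs there carries a large counting error. Of the UMIs of myoid cells 0.617%, 1.94% and 2.29% came from mitochondrial genes, against 1.23%, 2.70% and 2.54% in the stromal cells and 1.74%, 4.50% and 5.80% in all other called cells compared below, and the part of this lower share in the results was not tested. The called barcodes of 2 libraries had 45, 23 and 71 sequences in common (cattle 1 and 2, 1 and 3, 2 and 3), against 42.1, 29.8 and 73.7 when libraries draw barcodes independently, and 1, 1 and 5 of the shared barcodes were myoid in both.

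ACTA2, which encodes smooth muscle actin, was the most abundant gene of the rule, at 8388, 5864 and 7527 CPM (UMIs of a gene per 1000000 UMIs of the summed cells) in myoid cells. TAGLN, an actin-binding protein of smooth muscle, stood at 3130.1, 1909 and 2241 CPM, ACTG2, the enteric smooth muscle actin, at 1581, 701 and 917 CPM, CNN1, the basic calponin, at 433, 259 and 363 CPM, and MYH11, the smooth muscle myosin heavy chain, at 201, 320.4 and 212 CPM. ACTA2 had a UMI in nearly every myoid cell (100%, 99.8% and 99.9%), and MYH11 in 15.2%, 46.7% and 57.4%, a share that moved with the depth of the library. All 4 genes fixed as markers of the cell type (ACTA2, MYH11, TAGLN and CNN1) were thus present in each animal, which the rule itself favoured. Each UMI is 1 molecule tagged at its 3' end, so CPM was not scaled by transcript length.

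The 5 genes took a median of 1.33%, 0.831% and 1.04% of the UMIs of a myoid cell. In droplets with at most 50 UMIs, which hold free RNA and no cell, they took 0.127%, 0.124% and 0.245%, so free RNA carried these transcripts in all 3 libraries. Of the myoid cells 12, 272 and 281 had a contractile share under 0.5%. Of the myoid cells, 293, 829 and 359 had 3 of the genes, 81, 458 and 593 had 4, and 7, 127 and 673 had all 5. Cells with exactly 4 UMIs over 3 or more genes numbered 10, 25 and 25, just inside the rule. Just outside it were 7, 18 and 30 barcodes with 3 UMIs over 3 genes, and 259, 799 and 223 with 4 or more UMIs over 2 genes.

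**Figure D1:**
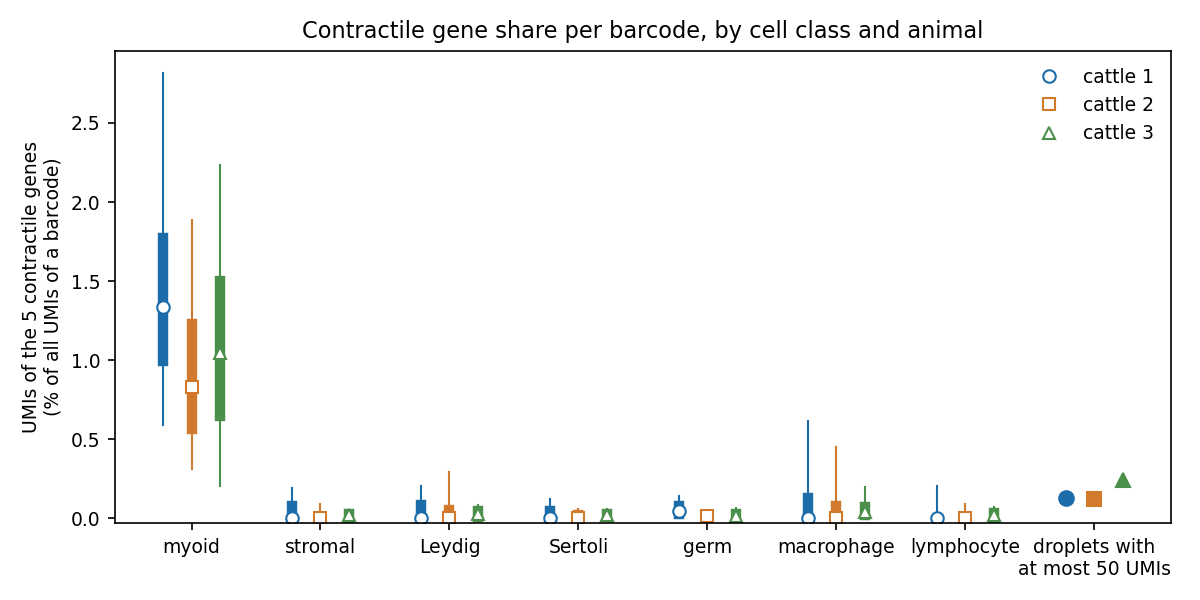
Share of the UMIs of a barcode that came from the 5 contractile genes of the rule (percent, vertical axis) by cell class, for cattle 1, 2 and 3. Open symbols give the median, thick bars the 25th to 75th percentile and thin lines the 5th to 95th percentile of cells, and filled symbols give the pooled share in droplets with at most 50 UMIs. Myoid cells had medians of 1.33%, 0.831% and 1.04%, and the 5th percentile of cattle 3 (0.203%) lay below its droplets (0.245%).

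The contractile threshold was also reached by cells with genes of other types, and more often in the deepest library. Of cells with a UMI in at least 2 lymphocyte genes, 1.97%, 2.98% and 12.1% reached it, at median depths of 615, 1400 and 3966 UMIs. Of cells with at least 2 macrophage genes it was 7.62%, 11.9% and 33.1%, and of cells with at least 2 Leydig genes 5.05%, 14.7% and 28.6%. The conditions on other cell types and on cell division together left out 41, 129 and 375 barcodes, of which 39, 109 and 211 held Leydig genes. Macrophage and lymphocyte genes were not part of the rule, and 4.2%, 4.67% and 29.6% of the myoid cells had a UMI in at least 2 macrophage genes. C1QA, a complement gene of macrophages, stood at 163, 143 and 179 CPM in myoid cells, below its level in the droplets (1341, 695 and 775 CPM) and in cells with macrophage genes (3853, 5887 and 2982 CPM).

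Of 6 marker genes of vascular mural cells, 3 had at most 11 UMIs in the myoid cells of any animal. RGS5, a pericyte regulator of G protein signalling, had 1, 2 and 11 UMIs, NOTCH3, the Notch receptor of vascular smooth muscle, 0, 0 and 1, and ABCC9, a potassium channel subunit of pericytes, 0, 1 and 3. KCNJ8, the channel that pairs with ABCC9, had 1, 7 and 31 UMIs, CSPG4 (NG2) 0, 4 and 28, and MCAM (CD146) 3, 11 and 101. In cattle 3, 5.54% of the myoid cells had an MCAM UMI, and myoid cells held 101 of the 201 MCAM UMIs of all called cells. Cells with a UMI in at least 2 of the 6 genes numbered 0 of 381, 0 of 1414 and 10 of 1625, where a count of 0 (3 counts of the total) allows a share of up to 0.787% in cattle 1 and 0.212% in cattle 2. These limits cover counting error only and concern cells with a UMI, not cells that express the genes. A comparison of myoid cells with and without mural genes could not be run, since 2 animals had no myoid cell with a UMI in at least 2 of the 6 genes.

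Myoid cells were 10.7% (exact 95% binomial interval 9.75 to 11.8), 16.2% (15.4 to 16.9) and 26.2% (25.1 to 27.3) of the called barcodes, with a mean of 17.7% ± 7.83 (SD, n = 3). The share was lowest in the shallowest library and highest in the deepest. After every barcode was thinned to 460 UMIs, the threshold was met by 6.52%, 4.57% and 8.55%, and cattle 1 then stood above cattle 2. With 1 minimum of 500 UMIs for all libraries the shares were 11.4%, 12% and 14.3%. The order of the 3 animals thus depended on how depth was treated.

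The same rule gave 2, 118 and 23 cells in the 3 pigs, a mean of 1.36% ± 1.5 (SD, n = 3) of called barcodes, below that of each of the 3 cattle. A two-sided exact permutation test over animals gave p = 0.1, the smallest p that 3 against 3 animals allow. The pig gene table named only 3 of the 5 contractile genes by symbol (ACTA2, TAGLN and CNN1), which all had to be present there. With those 3 genes alone in both species the cattle shares were 3.10%, 6.05% and 17.9%, against 0.0616%, 3.00% and 1.01% in pig, and the exact p was again 0.1. After each barcode was thinned to 460 UMIs the shares were 6.52%, 4.57% and 8.55% in cattle and 0%, 0.178% and 0.0439% in pig (exact p = 0.1), where 0 of 3248 barcodes allows a share of up to 0.0924%. The thinned shares rest on the 5 genes in cattle and on only 3 of them in pig. The 3 genes alone were not used on thinned counts. The species also differ in age and genome build, which cannot be told apart from species in these libraries.

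To find which genes set myoid cells apart from other cells of the same testicular interstitium, they were compared with interstitial stromal cells. These were called barcodes with a UMI of TCF21, a transcription factor of gonadal stroma, at most 1 UMI over the 5 contractile genes and none of the conditions that left cells out, and they numbered 281, 1096 and 656. Their median depth was 583, 1227 and 3281 UMIs, lower than that of the myoid cells in each animal. TCF21 itself had a UMI in 24.9%, 52.4% and 87.6% of the myoid cells, against 6.07%, 7.39% and 13.9% of cells with genes of the lymphocyte class alone, which had median depths of 588, 1361.5 and 3579 UMIs, and it stood at 360.4, 456 and 600.0 CPM in myoid cells and 177, 246 and 314 CPM in the droplets with at most 50 UMIs. Counts were summed per animal, and 11254 genes outside the rule and TCF21 were tested with edgeR.

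Of these genes 135 (1.20%) rose in myoid cells and 86 (0.764%) fell, together 221 genes (1.96%), at an adjusted p under 0.05 by the quasi-likelihood test of edgeR, adjusted after Benjamini and Hochberg. The same test gave every adjusted p that follows, and ± beside a log2 fold change is its SE. With the animal as a replicate block, 1152 rose and 852 fell in edgeR, but that fit left 2 residual degrees of freedom per gene and gave infinite prior degrees of freedom, so that it took the spread of each gene from the trend over all genes and none from the gene's own animals. Its p-values are not given for single genes. The same block in limma voom, which keeps part of each gene's own spread, gave 888 higher and 726 lower, and the results with a replicate block given below are from limma voom. Without cattle 1 the counts were 244 and 187, without cattle 2 they were 32 and 3, and without cattle 3 they were 20 and 2. Scaling by library size alone, which moved the median of all genes from -0.01 to -0.20 on the log2 scale, gave 121 higher and 150 lower, and the share of higher genes among the calls went from 61.1% to 44.6%.

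KRT8 and KRT18, a pair of keratins that form intermediate filaments in simple epithelia, both rose. KRT18 stood at 453, 259 and 396 CPM in myoid cells and 14.4, 10.3 and 11.5 CPM in stromal cells (adjusted p = 0.00011, log2 fold change 5.16 ± 0.31). KRT8 stood at 512, 251 and 334 CPM against 19.2, 4.85 and 10.7 CPM (adjusted p = 0.000379, log2 fold change 5.43 ± 0.44). For both keratins the lowest myoid value lay more than 10 times above the highest stromal value, in all 3 animals.

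MYL7, a myosin light chain best known from the atrium of the heart, stood at 174, 50 and 82.6 CPM in myoid cells and 0, 0 and 1.28 CPM in stromal cells. The stromal cells of all animals together held 3 UMIs of MYL7 against 913 in myoid cells, a ratio of pooled CPM of 108 with an exact 95% counting interval of 37.0 to 527. TNNI1, the troponin I of slow skeletal muscle, stood at 456, 187 and 132 CPM against 19.2, 6.07 and 5.98 CPM (adjusted p = 0.00128, log2 fold change 5.23 ± 0.55). All 3 animals had higher levels of both genes in myoid cells, and the adjusted p of MYL7 was 0.0770 without cattle 3. MYL7 passed the filter on low counts through the myoid cells, so its call supports nothing.

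TPM2, the beta tropomyosin that winds along actin filaments, was at 2845, 1626 and 2299 CPM in myoid cells and 163, 101 and 93.9 CPM in stromal cells (adjusted p = 0.000163, log2 fold change 4.47 ± 0.30). ELN, which encodes elastin, was at 1497, 857 and 1689 CPM against 91.3, 59.4 and 89.6 CPM (adjusted p = 0.000341, log2 fold change 4.26 ± 0.33). NEXN, an actin-binding protein of muscle, was at 192, 167 and 243 CPM against 19.2, 12.1 and 9.82 CPM (adjusted p = 0.000212, log2 fold change 4.24 ± 0.31). These 3 genes were higher in the myoid cells of every animal, which the choice of named genes required.

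The other genes with the largest rises were SLC18A2, the vesicular monoamine transporter, with a log2 fold change of 4.80, ALPL, tissue-nonspecific alkaline phosphatase, with a log2 fold change of 3.43, and the chemokine CXCL14. CXCL14 stood at 66.8, 89.4 and 14.3 CPM in myoid cells and 0, 3.03 and 0.427 CPM in stromal cells, lowest in cattle 3 among the myoid sums. It had 398 UMIs in myoid and 6 in stromal cells, a ratio of pooled CPM of 23.6 with an exact 95% counting interval of 10.8 to 64.8 (adjusted p = 0.0183, or 0.0793 without cattle 2), and its log2 fold change ranged from 3.51 to 10.03 over the alternative fits. Like MYL7, KCNMB1, LMOD1 and MCAM, it had fewer than 10 UMIs in all stromal cells and passed the filter on low counts through the myoid cells. The calls of these genes against stromal cells therefore support nothing, and their UMIs and levels are a description. SLC18A2 stood at 81.4, 103 and 198 CPM in myoid cells against 9.61, 6.07 and 3.84 CPM in stromal cells, and ALPL at 145, 119.6 and 74.8 CPM against 19.2, 17.6 and 4.27 CPM.

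RBP4, INHBA and CHI3L1 were among the 10 genes that fell most. RBP4, the plasma carrier of retinol, was at 291, 271 and 427 CPM in myoid cells and 1687, 1915 and 1389 CPM in stromal cells (adjusted p = 0.0033, log2 fold change -2.13 ± 0.27). INHBA, the subunit of activin A, was at 23.2, 20.6 and 47.7 CPM against 139, 166 and 307 CPM (adjusted p = 0.0162, log2 fold change -2.51 ± 0.42). CHI3L1, a secreted chitinase-like protein, was at 5.81, 6.74 and 6.27 CPM against 43.2, 89.8 and 93.9 CPM (adjusted p = 0.00109, log2 fold change -3.45 ± 0.35). These 3 genes were lower in the myoid cells of every animal.

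CRABP1, an intracellular carrier of retinoic acid, fell by 2.61 on the log2 scale, CYP4F2, a fatty acid hydroxylase, by 2.18, LHX9, a homeobox factor of the gonad, by 2.09, and NGFR, a neurotrophin receptor, by 1.91. STMN2 (stathmin 2), RPRM (reprimo) and TPPP3, a tubulin polymerization protein, fell by 4.14, 2.81 and 2.06. STMN2 stood at 55.2, 5.68 and 6.50 CPM in myoid cells and 591, 122 and 156 CPM in stromal cells, so that the myoid value of cattle 1 was the highest of the 3. It was called in 12 of 19 alternative fits, with log2 fold changes of -4.64 to -3.36, and missed the threshold by DESeq2 (adjusted p = 0.0591), with at least 30 counts (0.0587), without all of the conditions that left cells out, cell division included (0.0848) and with choices made on thinned counts (0.0591). Without the conditions TPPP3 and NGFR lost their calls too. All 10 of the genes with the largest falls kept the call without cattle 1, 1 kept it without cattle 2 (CHI3L1) and 2 without cattle 3 (INHBA and RBP4), while 9 of the 10 largest rises kept it in each of these last 2 fits.

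**Figure D2:**
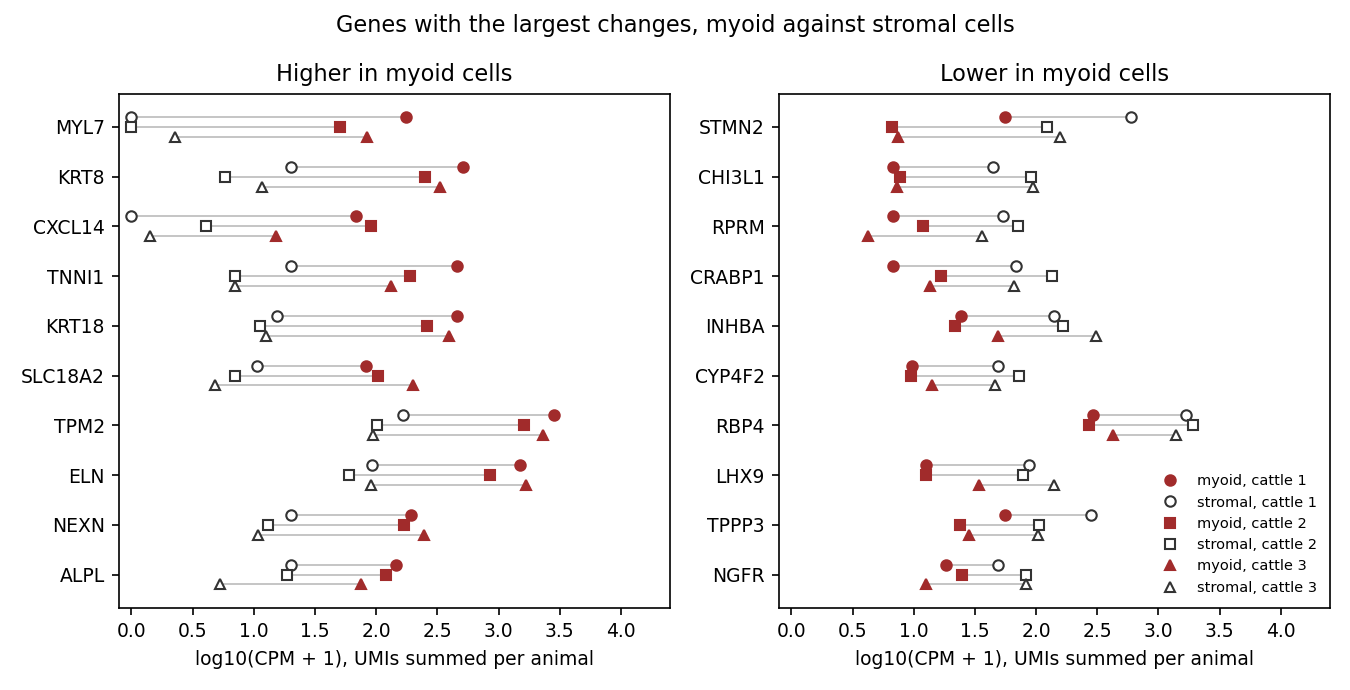
Level of the 10 genes with the largest rise (left) and the 10 with the largest fall (right) in myoid against stromal cells, as log10(CPM + 1) of the UMIs summed per animal (horizontal axis). Filled symbols are myoid cells and open symbols stromal cells, the shape gives the animal, and a line joins the 2 cell groups of an animal. The keratins and TPM2 stood apart in every animal, with KRT18 at 259 CPM or more in myoid cells and at 14.4 CPM or less in stromal cells.

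The contractile apparatus outside the rule was the gene group with the most calls. Myoid cells were chosen with at least 4 contractile UMIs and stromal cells with at most 1. Rises of other muscle genes therefore describe the choice of cells as well. Of 35 tested entries of the contractile list 14 rose and 1 fell in edgeR's quasi-likelihood test, where 1.20% of all genes tested rose and 0.764% fell. The counts of the other lists against stromal cells are read against the same shares. At an unadjusted p under 0.05 there were 24 higher and 1 lower, and by DESeq2 15 and 1. The median log2 fold change was 1.13 against -0.01 over all genes tested. With the replicate block 27 rose and 1 fell, and without cattle 2 and without cattle 3 there were 6 and 3 that rose. MYLK, the kinase that starts smooth muscle contraction by phosphorylating myosin light chains, was at 965, 711 and 1232 CPM in myoid cells and 81.7, 90.4 and 135 CPM in stromal cells (adjusted p = 0.000879, log2 fold change 3.38 ± 0.32). LMOD1, leiomodin of smooth muscle, was at 46.5, 24.1 and 59.9 CPM against 0, 0.607 and 2.99 CPM, with 600 UMIs in myoid and 8 in stromal cells, a ratio of pooled CPM of 26.7 with an exact 95% counting interval of 13.5 to 62.2 (adjusted p = 0.00383). LMOD1 passed the filter on low counts through the myoid cells, so its call, 1 of the 14, supports nothing. DES, the muscle intermediate filament desmin, was at 145, 121 and 232 CPM against 19.2, 36.4 and 61 CPM (adjusted p = 0.0238, log2 fold change 2.12 ± 0.39).

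The most abundant tested members were ACTB, MYL6, PDLIM3 and TPM2. MYL6, the essential myosin light chain of smooth muscle and non-muscle cells, stood at 4978, 4255 and 3825 CPM against 1932, 1526 and 1154 CPM (adjusted p = 0.00526, log2 fold change 1.70 ± 0.23). PDLIM3, an actinin-associated LIM protein, stood at 3269.6, 2261 and 3457 CPM against 1072, 719 and 839.7 CPM (adjusted p = 0.0033, log2 fold change 1.97 ± 0.24). ACTB, the cytoplasmic actin of all cells, was higher in the myoid cells of 3 of 3 animals, but its log2 fold change of 0.54 had an adjusted p of 0.408, or 1.4e-05 with the replicate block.

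MYL9, the regulatory myosin light chain, is listed under 2 identifiers. The entry ENSBTAG00000011473 stood at 1988, 1022 and 1416 CPM in myoid cells and 327, 155 and 146 CPM in stromal cells (adjusted p = 0.00182, log2 fold change 3.05 ± 0.34). The entry ENSBTAG00000016024 stood at 607, 617 and 495 CPM against 524, 459 and 371 CPM (adjusted p = 0.326, log2 fold change 0.55 ± 0.22). Reads that fit both entries could have been split between them or dropped, so the values of each entry are uncertain.

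FLNA (filamin A), TPM4, ACTN1 (alpha-actinin 1), PDLIM7, CSRP1 and SMTN (smoothelin) also rose, by 1.26 (SMTN) to 2.21 (FLNA) on the log2 scale. CRYAB, a small heat shock protein of muscle, fell, from 86.5, 89.8 and 69.2 CPM in stromal cells to 40.7, 29.8 and 26 CPM in myoid cells (adjusted p = 0.0353, log2 fold change -1.22 ± 0.25). It was called in 11 of 19 alternative fits, and its log2 fold change was -0.27 (adjusted p = 0.917) against stromal cells with at least 2 TCF21 UMIs. CALD1 (caldesmon), at 770.2, 1099.7 and 980.0 CPM in myoid cells, and TPM1, at 46.5, 67.8 and 62.1 CPM, did not pass the test against stromal cells (adjusted p = 0.496 and 0.10).

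KRT8, KRT18 and MYL7 had lower means in each of the other cell classes than in myoid cells. Classes were defined by UMIs of at least 2 marker genes of 1 type only and are not pure. KRT18 had a mean of 369.7 CPM in myoid cells, and its highest mean elsewhere was 22.7 CPM in cells with macrophage genes. NEXN had 201 CPM in myoid cells and at most 13.7 CPM (stromal cells) in the other classes. Other genes were not highest in myoid cells, since EDNRA was at 751 CPM in stromal cells and 600.1 CPM in myoid cells, and COL4A1 was higher in Leydig cells (257 CPM) than in myoid cells (164 CPM). These means are a description and were not tested.

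**Figure D3:**
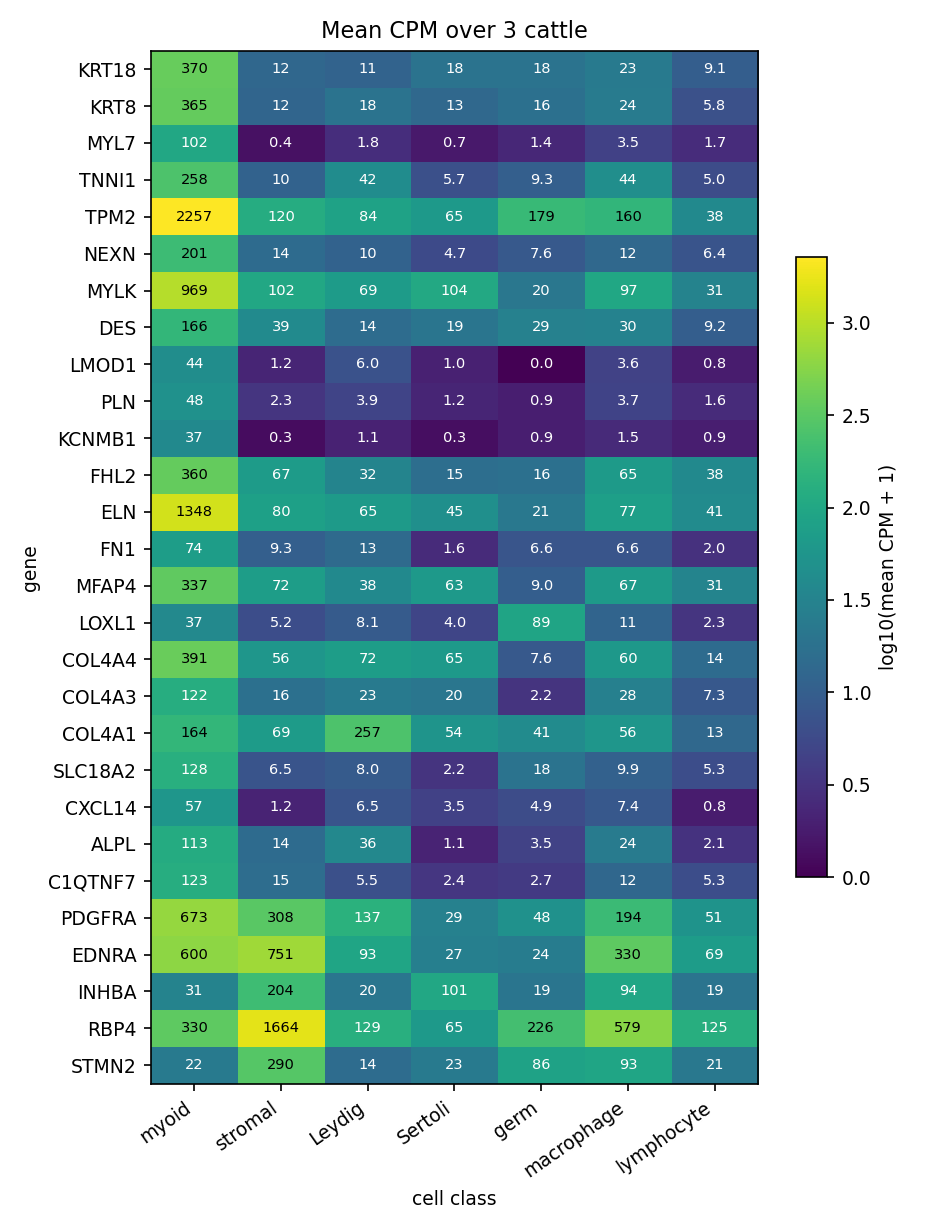
Mean level of 28 genes in 7 cell classes of the cattle testis (CPM over 3 animals, printed in each cell, colour on the scale log10(mean CPM + 1)). KRT18, KRT8, MYL7, NEXN and TPM2 were highest in myoid cells, at 369.7, 365, 102, 201 and 2257 CPM, while EDNRA, RBP4, INHBA and STMN2 were higher in stromal cells, and LOXL1 in germ cells.

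Matrix genes of the basement membrane rose in part, where 1.20% of all genes tested rose. Of 17 tested genes 3 rose and none fell in edgeR's quasi-likelihood test (7 higher and 1 lower at an unadjusted p under 0.05, 3 and 0 by DESeq2), with a median log2 fold change of 0.72 against -0.01 over all genes, and 11 rose and none fell with the replicate block. The 3 were all chains of type IV collagen, the network of basement membranes. COL4A4 was at 319.7, 429 and 423 CPM in myoid cells and 86.5, 53.4 and 29.5 CPM in stromal cells (adjusted p = 0.002, log2 fold change 3.14 ± 0.36). COL4A3, which assembles with it, was at 93, 162 and 109.9 CPM against 24, 19.4 and 5.55 CPM (adjusted p = 0.00655, log2 fold change 3.38 ± 0.47). COL4A1, the chain of nearly all basement membranes, was at 192, 161 and 139 CPM against 86.5, 67.9 and 52.9 CPM (adjusted p = 0.0145, log2 fold change 1.47 ± 0.24).

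COL4A4 was called in all 19 alternative fits, COL4A3 in 18 and COL4A1 in 15. The other abundant members COL15A1 (229.6, 554 and 515 CPM in myoid cells), COL18A1 (430.1, 340.3 and 296 CPM) and the laminin chain LAMB1 (142, 186 and 197 CPM) were higher in 3 of 3 animals, with adjusted p of 0.573, 0.620 and 0.251. All 3 were called with the replicate block. Without cattle 2 the count was 2, and without cattle 3 it was 1.

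Where 1.20% of all genes tested rose, 6 of 33 tested genes of the interstitial matrix rose and none fell in edgeR's quasi-likelihood test. By DESeq2 9 rose, and at an unadjusted p under 0.05 there were 20 higher and 2 lower. The median log2 fold change was 0.91. The 6 genes were ELN, FN1, LOXL1, MFAP4, COL6A1 and BGN. Fibronectin (FN1) was at 66.8, 80.6 and 73.2 CPM in myoid cells and 4.81, 12.7 and 10.2 CPM in stromal cells (adjusted p = 0.00109, log2 fold change 2.95 ± 0.30). MFAP4, a microfibril-associated glycoprotein of elastic fibres, was at 512, 269 and 231 CPM against 101, 46.7 and 68.3 CPM (adjusted p = 0.00668, log2 fold change 2.46 ± 0.35). LOXL1, which crosslinks elastin, was at 34.9, 42.6 and 33.9 CPM against 0, 10.9 and 4.70 CPM (adjusted p = 0.0173, log2 fold change 2.61 ± 0.45). These 3 genes were higher in the myoid cells of every animal.

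The proteoglycan biglycan (BGN) and COL6A1, a chain of microfibrillar collagen VI, rose by 1.33 and 1.32 on the log2 scale and were called in 11 and 13 of 19 alternative fits. The most abundant matrix gene was MGP, matrix Gla protein, at 9855, 17178 and 14812 CPM in myoid cells and 6314, 8399 and 12553 CPM in stromal cells (adjusted p = 0.347, log2 fold change 0.80 ± 0.34). COL1A2, of fibrillar collagen I, was at 1773, 1832 and 1739 CPM against 846, 847 and 1500.5 CPM (adjusted p = 0.178). Both passed with the replicate block, in which 22 matrix genes rose and 1 fell. DCN (decorin), at 2441, 5165 and 3399.5 CPM in myoid cells and 2681, 4962 and 4697 CPM in stromal cells, was higher in 1 of 3 animals. Without cattle 2 and without cattle 3 there were 2 matrix genes that rose in each fit.

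**Figure D4:**
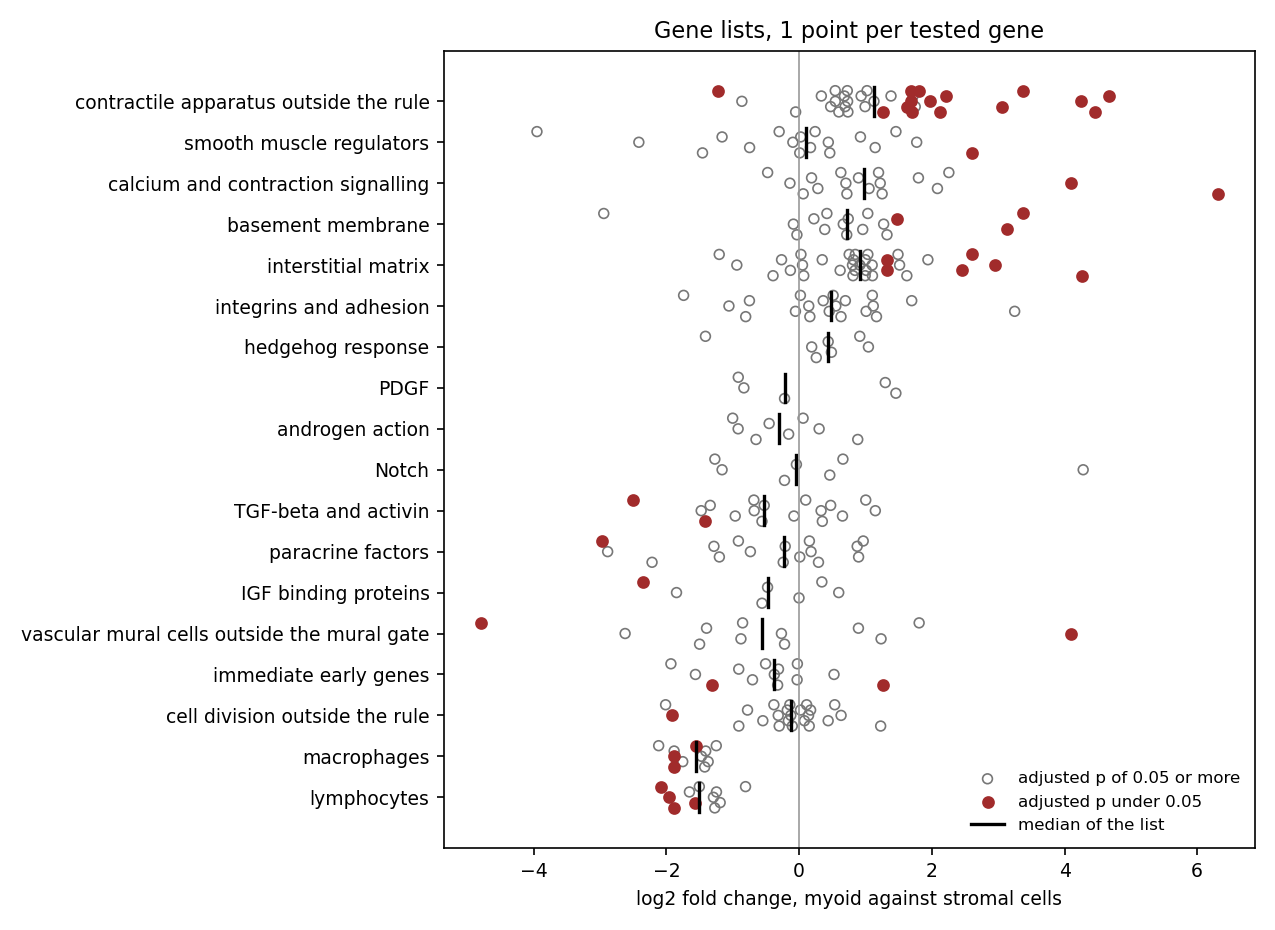
Log2 fold change of myoid against stromal cells (horizontal axis) for the tested genes of 18 gene lists (rows), 1 point per gene. Filled points had an adjusted p under 0.05 in edgeR's quasi-likelihood test, open points did not, and the bar marks the median of the list. The contractile list had a median of 1.13 and the matrix lists 0.72 and 0.91, while the macrophage and lymphocyte lists had medians of -1.56 and -1.5.

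Of 18 tested regulators of smooth muscle 1 rose, where 1.20% of all genes tested did, and none fell (edgeR's quasi-likelihood test, also 1 by DESeq2, and 3 higher and 2 lower at an unadjusted p under 0.05). This was FHL2, a LIM protein that works with serum response factor, at 372, 348 and 361 CPM in myoid cells and 72.1, 58.2 and 72.1 CPM in stromal cells (adjusted p = 0.00061, log2 fold change 2.60 ± 0.23). NR2F2 (COUP-TFII), the most abundant regulator, was at 294, 404 and 514 CPM against 240.3, 385 and 385 CPM (adjusted p = 0.704, or 0.0051 with the replicate block). MYOCD (myocardin), the main coactivator of the smooth muscle programme, was at 0, 3.90 and 2.78 CPM in myoid cells, too few UMIs for a firm statement. With the replicate block 4 regulators rose and 3 fell.

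Of 18 tested genes of calcium and contraction signalling 2 rose, where 1.20% of all genes tested did, and none fell (edgeR's quasi-likelihood test, also 2 by DESeq2, and 6 higher and 0 lower at an unadjusted p under 0.05). With the replicate block 6 rose. PLN, phospholamban, which restrains the calcium pump of the sarcoplasmic reticulum, was at 20.3, 53.6 and 70.9 CPM in myoid cells and 0, 1.82 and 5.12 CPM in stromal cells (adjusted p = 0.00655, log2 fold change 4.10 ± 0.58). KCNMB1, the smooth muscle subunit of the large-conductance potassium channel, was at 40.7, 25.6 and 46.2 CPM in myoid cells, with 484 UMIs there against 2 in stromal cells, a ratio of pooled CPM of 86.3 with an exact 95% counting interval of 23.8 to 714. KCNMB1 passed the filter on low counts through the myoid cells, so its call, 1 of the 2, supports nothing. EDNRA, the endothelin A receptor, was the most abundant member, at 355, 598 and 847 CPM in myoid cells and 471, 844 and 938 CPM in stromal cells. It was lower in the myoid cells of all 3 animals, with an adjusted p of 0.981. Without cattle 2 there was 1 gene of this list that rose, and without cattle 3 there was none.

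Of all genes tested against stromal cells 1.96% passed, and the short lists of signalling genes known from peritubular cells are read against that share. None of 7 tested hedgehog response genes passed in edgeR's quasi-likelihood test (1 higher and 0 lower at an unadjusted p under 0.05, 0 by DESeq2), and 1 rose with the replicate block. GLI1, the transcription factor at the end of the pathway, was at 29.1, 31.9 and 32.6 CPM in myoid cells and 9.61, 30.9 and 26 CPM in stromal cells. Its levels overlapped between the cell groups, and its direction turned when the cells were chosen on thinned counts.

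None of 5 tested genes of platelet-derived growth factor signalling passed either (edgeR's quasi-likelihood test, 2 higher and 0 lower at an unadjusted p under 0.05, 0 by DESeq2), and 2 rose with the replicate block. The receptor PDGFRA was at 279, 907 and 832 CPM in myoid cells and 139, 377 and 407 CPM in stromal cells (adjusted p = 0.297, log2 fold change 1.30 ± 0.50). It was higher in the myoid cells of 3 of 3 animals, and it passed without cattle 1 (adjusted p = 0.0117) and with the replicate block (adjusted p = 2.3e-06). The receptor PDGFRB, which marks peritubular and mural cells in other species, was at 2.91, 1.42 and 1.74 CPM and thus hardly detected.

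None of 8 tested genes of androgen action passed (edgeR's quasi-likelihood test, 0 at an unadjusted p under 0.05 and 0 by DESeq2). In the Notch list none of 7 passed (1 higher and 1 lower at an unadjusted p under 0.05, 0 by DESeq2), and HEYL, a target of Notch, was at 93, 125 and 127 CPM against 81.7, 91.6 and 111 CPM. GDNF, the factor for spermatogonial stem cells that peritubular cells can secrete, had 1 UMI over all myoid cells. At these levels a difference in PDGFRB or GDNF was not detectable.

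In the list of transforming growth factor beta and activin signalling 2 of 17 fell and none rose (edgeR's quasi-likelihood test, 1 higher and 4 lower at an unadjusted p under 0.05, 0 and 2 by DESeq2). They were INHBA, given above, and BMP4, at 26.2, 19.9 and 19.7 CPM in myoid cells and 52.9, 67.3 and 65.7 CPM in stromal cells (adjusted p = 0.0189, log2 fold change -1.42 ± 0.25). Of 16 paracrine factors 1 fell and none rose (0 higher and 5 lower at an unadjusted p under 0.05, 0 and 2 by DESeq2), namely RSPO3, an amplifier of Wnt signalling, at 2.91, 1.06 and 2.44 CPM against 19.2, 10.3 and 25.2 CPM (adjusted p = 0.0176, log2 fold change -2.97 ± 0.52). Without the conditions that left cells out BMP4 and RSPO3 lost the call. BMP4 also lost it against stromal cells with 0 contractile UMIs (adjusted p = 0.0712, log2 fold change -1.23). With the replicate block 3 rose and 4 fell in the first list and 1 rose and 5 fell in the second.

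IGF2, the most abundant paracrine factor, was at 1506, 1395 and 2777 CPM in myoid cells and 1230.2, 1512 and 2894 CPM in stromal cells. PTN (pleiotrophin) was at 456, 955 and 559.6 CPM against 1451, 2371 and 1710.1 CPM, lower in 3 of 3 animals, with an adjusted p of 0.103, and it passed in 5 of 19 alternative fits, among them the replicate block (adjusted p = 9.7e-07). Of 7 tested genes of the IGF binding protein list IGFBP5 fell, from 24, 39.4 and 53.8 CPM in stromal cells to 0, 8.16 and 8.01 CPM in myoid cells (adjusted p = 0.0285, log2 fold change -2.35 ± 0.45). IGFBP5 lost the call without the conditions that left cells out (adjusted p = 0.0899, log2 fold change -2.06). IGFBP6, the most abundant gene of that list, was at 4455, 3949.6 and 2644 CPM in myoid cells against 3969, 3457 and 2556 CPM. None of the calls of these 3 lists remained without cattle 2, and without cattle 3 INHBA alone did.

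Of 20 tested integrin and adhesion genes none passed in edgeR's quasi-likelihood test (6 higher and 1 lower at an unadjusted p under 0.05, 1 higher by DESeq2), with a median log2 fold change of 0.48, and 5 rose with the replicate block. ITGB1, the shared beta 1 chain of matrix-binding integrins, was at 352, 478 and 395 CPM in myoid cells and 231, 338 and 287 CPM in stromal cells. CAV1, caveolin of the membrane pits of muscle cells, was at 177, 198 and 345 CPM against 101, 116 and 159 CPM. Each was higher in 3 of 3 animals, with adjusted p of 0.282 and 0.144, and both passed with the replicate block (adjusted p = 0.00029 and 2.1e-05).

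Among 12 tested mural genes outside the 6 named above, PLN rose and ENPEP, an aminopeptidase of pericytes with 2 UMIs in all myoid cells and 30 in stromal cells, was called lower, a ratio of pooled CPM of 0.0238 with an exact 95% counting interval of 0.00275 to 0.0937. ENPEP passed the filter on low counts through the stromal cells, so its call supports nothing. The call of ENPEP was lost without cattle 2, without cattle 3, without the conditions that left cells out and on thinned counts. MCAM, tested apart from that list, was at 8.72, 3.90 and 11.7 CPM in myoid cells and 0, 0.607 and 0.427 CPM in stromal cells (115 and 2 UMIs in all, a ratio of pooled CPM of 20.5 with an exact 95% counting interval of 5.55 to 171, adjusted p = 0.0266). MCAM passed the filter on low counts through the myoid cells, so its call supports nothing either. The call of MCAM was lost without cattle 2 (adjusted p = 0.25), without cattle 3 (0.765), without the conditions that left cells out (0.175) and against stromal cells with 0 contractile UMIs (0.0518). HIGD1B, a gene of pericytes, was at 69.8, 175 and 51.4 CPM against 57.7, 46.7 and 10.7 CPM (adjusted p = 0.225, log2 fold change 1.81 ± 0.62), higher in 3 of 3 animals without passing the test, which it passed with the replicate block (adjusted p = 5.5e-05). COX4I2, a subunit of cytochrome c oxidase, was at 87.2, 68.5 and 71.9 CPM against 365, 269 and 122 CPM (adjusted p = 0.054, log2 fold change -1.50 ± 0.34), lower in 3 of 3 animals without passing, and it passed with the block (adjusted p = 0.00136) and in 11 of 19 alternative fits in all. ADIRF, an abundant gene of smooth muscle, was at 625, 813 and 1146 CPM in myoid cells and 505, 561 and 531 CPM in stromal cells (adjusted p = 0.168, or 6.8e-05 with the replicate block). Of 13 immediate early genes, which can respond to tissue digestion, IER3 rose and KLF6 fell. KLF6 was at 113, 87.3 and 103 CPM in myoid cells and 308, 203 and 348 CPM in stromal cells (adjusted p = 0.0331, log2 fold change -1.32 ± 0.26), called in 16 of 19 alternative fits and lost without cattle 2, without cattle 3 and without the conditions that left cells out, and IER3, called in 11 of 19 alternative fits, at 142, 125 and 126 CPM against 91.3, 42.5 and 63.6 CPM (adjusted p = 0.0458, log2 fold change 1.26 ± 0.27). JUN and FOS, which form the AP-1 factor, were at 616, 452 and 457 and 520.2, 256 and 283 CPM in myoid cells. Of 23 tested genes of cell division outside the rule 1 (TPX2) fell and none rose (edgeR's quasi-likelihood test, 0 higher and 2 lower at an unadjusted p under 0.05, 0 and 1 by DESeq2).

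Markers of other cell types moved with this comparison, in which 0.764% of all genes tested fell. The 11 macrophage genes summed to 427, 372 and 515 CPM in myoid cells and 754, 1462 and 1745 CPM in stromal cells, with C1QA the most abundant, and 3 of 11 fell (C1QB, LYZ and CD14), with all 11 lower at an unadjusted p under 0.05 and 4 by DESeq2. The 11 lymphocyte genes summed to 294, 252 and 241 CPM against 841, 674 and 1016 CPM, with CCL5 the most abundant, and 4 of 11 fell (CD2, CD3E, PTPRC and CCL5), with 9 lower at an unadjusted p under 0.05 and 5 by DESeq2. No gene of either list was at 0 in myoid cells. When cells with a UMI in at least 2 macrophage or 2 lymphocyte genes were left out of both sums, 128 genes rose and 58 fell, and no gene of the 2 lists did. All 10 of the genes with the largest rises and 9 of the 10 with the largest falls kept their call then, and STMN2 missed the threshold with a log2 fold change of -4.32 (adjusted p = 0.0512).

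Of Sertoli cell genes outside the rule 2 of 8 fell (AARD and AQP8), against 0.764% of all genes tested, with 7 lower at an unadjusted p under 0.05 and 2 by DESeq2. Their list summed to 1907, 1637 and 1309 CPM in myoid cells against 3556, 3635 and 2560 CPM in stromal cells, with CLU the most abundant and DHH, GATA1, INHBB and SOX8 at 0 in myoid cells. Of 8 Leydig genes none passed in edgeR's quasi-likelihood test (1 higher and 0 lower at an unadjusted p under 0.05, 0 by DESeq2). The Leydig list summed to 5411.5, 1056.4 and 1327.7 CPM in myoid cells against 16968, 1402.3 and 1896.7 CPM in stromal cells, lower in each animal. INSL3, a Leydig hormone and its most abundant gene, stood at 5333, 961 and 1279 CPM in myoid cells and at 111270, 24508 and 17398 CPM in the droplets with at most 50 UMIs. Of 8 germ cell genes and 5 endothelial genes none passed (1 higher and 0 lower, and 0, at an unadjusted p under 0.05, 0 by DESeq2). The 9 endothelial genes of the table, of which ESAM and FLT1 were at 0 in myoid cells, summed to 17.4, 11 and 8.93 CPM in myoid cells, with VWF the most abundant. The part of these cells in the results was not tested.

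Against all other called cells of the same libraries, 709 of 14273 tested genes (4.97%) rose in myoid cells and 1110 (7.78%) fell, together 1819 (12.7%). With the replicate block 2999 rose and 2661 fell in limma voom (2738 and 3435 in edgeR), without cattle 1 it was 1689 and 2268, without cattle 2 it was 41 and 13, and without cattle 3 it was 56 and 28. The median of all genes was -0.15 on the log2 scale, and -0.41 under scaling by library size alone, which gave 528 higher and 1715 lower and moved the share of higher genes among the calls from 39.0% to 23.5%. The other cells were a mixture whose makeup differed between animals. They included the 259, 799 and 223 barcodes with 4 or more contractile UMIs over 2 genes just outside the rule. The 41, 129 and 375 contractile barcodes that the conditions left out were among them too. The part of these barcodes in the fold changes was not tested. This comparison shared the myoid sums with the one above. Calls in both comparisons therefore rest on the same myoid counts.

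The largest rises were again MYL7, KRT18, KRT8, NEXN, TPM2, ELN and SLC18A2, followed by C1QTNF7, MYLK and CA3. C1QTNF7, a secreted relative of complement C1q and tumour necrosis factor, was at 110.4, 122 and 135 CPM in myoid cells and 12.4, 22.2 and 13.1 CPM in the other cells (adjusted p = 0.00205, log2 fold change 3.17 ± 0.32). CA3, the carbonic anhydrase of muscle, was at 302, 435 and 1184 CPM against 55.5, 63.8 and 175 CPM (adjusted p = 0.016, log2 fold change 3.02 ± 0.62). It was the only 1 of the 10 that lost its call without cattle 2, and MYL7 was the only 1 without cattle 3. With choices made on thinned counts CA3 alone lost its call (adjusted p = 0.0688, log2 fold change 2.25).

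Of all genes tested against all other cells 4.97% rose, and of all those tested against stromal cells 1.20%. Of 37 interstitial matrix genes 26 rose and 1 fell (TIMP2, at 569.6, 376 and 347 CPM in myoid cells and 8113, 2333 and 2312 CPM in the other cells). Of 36 contractile entries 24 rose and 1 fell (CRYAB), of 22 genes of calcium and contraction signalling 10 rose, and of 18 basement membrane genes 8 rose. Medians were 1.84, 1.81, 1.28 and 1.36 on the log2 scale. Without cattle 2 these lists had 2, 8, 1 and 1 genes that rose, and without cattle 3 they had 6, 9, 1 and 1. Here too the myoid cells were chosen by contractile UMIs, so the contractile rises describe that choice as well.

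Of 9 tested hedgehog response genes 3 rose against all other cells, among them GLI1 and HHIP, the inhibitor that the pathway induces. GLI1 was at 29.1, 31.9 and 32.6 CPM in myoid cells and 8.29, 10.6 and 9.97 CPM in the other cells (adjusted p = 0.00348, log2 fold change 1.95 ± 0.26). HHIP was at 46.5, 21.3 and 25.1 CPM against 6.70, 6.66 and 7.31 CPM (adjusted p = 0.00353, log2 fold change 2.26 ± 0.30). Both were higher in 3 of 3 animals, and no gene of this list kept its call without cattle 2 or without cattle 3.

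PDGFRA and PDGFRL rose and the ligand PDGFA fell. PDGFRA was at 279, 907 and 832 CPM in myoid cells and 101, 219 and 164 CPM in the other cells (adjusted p = 0.0168, log2 fold change 2.33 ± 0.49), and PDGFA at 11.6, 1.42 and 1.86 CPM against 15, 21.2 and 15.4 CPM (adjusted p = 0.0211, log2 fold change -2.56 ± 0.57). Of 21 paracrine factors WNT2B, IGF2, CXCL12 and ANGPT2 rose and FGF9 fell, and CXCL12, a chemokine, was at 46.5, 32.3 and 68.3 CPM against 9.89, 6.02 and 14.8 CPM (adjusted p = 0.00631, log2 fold change 2.54 ± 0.41). EDNRA (adjusted p = 0.0219, log2 fold change 1.76 ± 0.40), NR2F2 (adjusted p = 0.00672, log2 fold change 1.84 ± 0.30) and HEYL (adjusted p = 0.00584, log2 fold change 1.66 ± 0.26) rose as well. Among androgen action genes FKBP4, a cochaperone of steroid receptors, fell (adjusted p = 0.0294, log2 fold change -0.88 ± 0.22). FKBP4 was at -0.22 on the log2 scale (adjusted p = 0.858) without the conditions that left cells out and at -0.60 (0.104) without cells that had immune genes. EDNRA and IGF2 lost the call without the conditions, with choices made on thinned counts and without cells that had immune genes, and PDGFA in the first 2 of these fits. EDNRA was then at 1.33 to 1.42, IGF2 at 1.20 to 1.24 on the log2 scale. None of the genes with values in this paragraph kept its call without cattle 2 or without cattle 3.

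The 10 largest falls were CT47B1, PRAME and TUBA3E, which are known from germ cells, CLGN, a chaperone of germ cells, TKTL1, HMGA1, the Sertoli product transferrin (TF), TIMP2, C28H10ORF10 and the immediate early gene FOSB. CT47B1 was at 11.6, 1.77 and 1.62 CPM in myoid cells and 46.2, 59.6 and 77 CPM in the other cells (adjusted p = 0.00266, log2 fold change -4.43 ± 0.52). FOSB was at 0, 4.97 and 7.31 CPM against 119, 45.7 and 92.7 CPM (adjusted p = 0.00449, log2 fold change -3.62 ± 0.52). Where 7.78% of all genes fell, 5 of 11 genes of the germ cell list fell, 7 of 9 of the Sertoli list, 9 of 11 of the lymphocyte list, 7 of 11 of the macrophage list, 3 of 9 of the endothelial list, 2 of 8 of the Leydig list and 2 of 5 of the Schwann and glial list, of which 1 rose. Cells with germ, Sertoli, Leydig or endothelial genes were left out of the myoid sums and kept in the others, so the falls of these 4 lists and of germ and Sertoli cell genes among the largest falls describe the choice of cells as well and support nothing. When the conditions on other cell types and on cell division were all dropped, 263 genes rose and 260 fell, and 8 of the 10 lost the call, with CT47B1 at -1.10, TUBA3E at -0.46, PRAME at -0.46, TKTL1 at -0.67, HMGA1 at -0.85, CLGN at -1.18, TF at -2.55 and FOSB at -2.65 on the log2 scale. Without cattle 2 only FOSB kept its call, and without cattle 3 only TIMP2 and C28H10ORF10 did. TUBA3E also missed the threshold by DESeq2 (adjusted p = 0.139). In edgeR it did so with a minimum of 500 UMIs in every library (0.0553) and without cells that had immune genes (0.0808).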

How the data were processed

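Single-cell RNA-seq libraries (10x Genomics, 3' chemistry v2) of 3 cattle and 3 pig testes were used. The authors deposited raw UMI counts per gene and barcode, made with Cell Ranger 2.1.0 per the submitters' processing notes and, for cattle, the build ARS-UCD1.2. The headers of the pig tables name software 3.0.2. The 3 cattle tables list 19994 genes, of which 16350 have a symbol, and all 737280 barcodes, and the pig tables list only barcodes with at least 500 UMIs (6220, 22920 and 8808). A barcode was called a cell when its UMIs reached 1/10 of the 99th percentile of the top 3000 barcodes (460, 972 and 2644 UMIs in cattle 1, 2 and 3). No barcode was removed as a doublet, and removal of high Scrublet scores was an alternative.

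The members, the gene lists and the tests were chosen with earlier results of these data known. Counts were summed per animal and cell group, genes below 10 counts in the 6 sums together were left out, and the quasi-likelihood test of edgeR 4.0.16 (R 4.3.3) was run with TMM scaling, with p adjusted after Benjamini and Hochberg and called under 0.05. DESeq2 1.42.0 and, for the replicate block, voom in limma 3.58.1 were alternatives. CPM are UMIs of the gene per 1000000 UMIs of the sum. SE is the log2 fold change divided by the square root of F. Cells were handled with Python 3.11.15, numpy 2.4.6, scipy 1.17.1, pandas 2.3.3 and scanpy 1.11.5. The test was checked on simulated data with known changes: when each gene had its own spread, well above the nominal share of the calls was false, more so against all other cells, and when genes of like level had a common spread the share was near nominal. The simulated sums were drawn independently, while the real sums of an animal were correlated, as given below. The check therefore cannot settle the share of false calls here, and the counts of calls may hold more than the threshold states.

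Named genes were the 10 with the largest change in each direction among those with an adjusted p under 0.05, the same direction in 3 of 3 animals, at least 50 CPM in the higher group and an informative symbol, plus up to 4 abundant tested members of each list. Other members named in the text were chosen after their values were seen. Both cell groups came from the same animals, and deviations of same-animal sums from their group means correlated with r of 0.606, 0.540 and 0.654 over 7160 genes (stromal comparison) and 0.698, 0.642 and 0.696 over 10447 genes (all other cells), so values with the animal as a replicate block (from limma voom for single genes and lists) are given where they change a call. A planned comparison of myoid cells with and without mural genes could not be run. Intervals and limits cover counting error only. Some genes of the lists are counted in them and not reported here by name.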

Additional observations from a re-analysis of the deposited data

How the results depend on the processing

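The mean share of myoid cells in cattle was 17.7%, and it was 26.3% with at least 3 contractile UMIs over 2 genes, 9.01% with ACTA2, TAGLN and CNN1 alone and 6.55% after thinning. Against stromal cells, 135 genes rose and 86 fell. The higher count was 224 with at least 1 count, 82 without the conditions on other cell types and cell division, 1152 with the replicate block in edgeR and 888 in limma voom, and 20 to 244 when 1 animal was left out. The lower count was 153 with at least 1 count, 150 under library size alone, 19 without the conditions, 54 with choices made on thinned counts, 157 with a contractile share of at least 0.5%, 852 with the block in edgeR and 726 in limma voom, and 2 to 187 when 1 animal was left out. Of the 86 lower calls against stromal cells, 38 recurred on thinned counts and 49 without cells that had immune genes. With stromal cells of at least 2 TCF21 UMIs 45 recurred, and without the conditions 18. Of the 135 higher calls 101, 117, 121 and 82 recurred in these fits, in the same order. Against all other cells, 709 rose and 1110 fell. The higher count was 263 without the conditions, 360 on thinned counts, 2738 with the block in edgeR and 2999 in limma voom, and 41 to 1689 when 1 animal was left out. The lower count was 1715 under library size alone, 260 without the conditions, 620 on thinned counts, 670 without cells that had immune genes, 3435 with the block in edgeR and 2661 in limma voom, and 13 to 2268 when 1 animal was left out. The block kept all calls against stromal cells in both tools, and against all other cells all calls in edgeR and 1063 of the 1110 lower calls in limma voom.

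Genes that did not pass against stromal cells changed sign in some fits. DCN (0.03 on the log2 scale) was at -0.17 under library size alone, -0.18 to 0.20 when 1 animal was left out (lowest without cattle 2), -0.0942 on thinned counts, -0.0178 with the block in limma voom, -0.11 without cells that had immune genes and -0.16 with stromal cells of at least 2 TCF21 UMIs. On thinned counts GLI1 was at -0.0286, and IGF2 was at -0.0123 with at least 2 TCF21 UMIs. The cause of these shifts was not tested. The gene comparison alternatives on thinning, immune genes, the 0.5% share and the block in limma voom, and the share from 3 genes, were chosen after seeing the data. The comparison of myoid cells with and without mural genes and its alternatives were not run, since 2 animals had no myoid cell with at least 2 of the 6 genes. Depth limits what cattle 1 can show, with 344082 UMIs in its myoid cells.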
